A study of Homo sapiens with 12 samples.

Results

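The regions described here are the clusters on the mitochondrial chromosome (chrM) in PAR-CLIP of HepG2, a human liver cancer cell line, made for the proteins METTL1, WDR4, IGF2BP1, IGF2BP2 and IGF2BP3. PAR-CLIP (photoactivatable ribonucleoside-enhanced crosslinking and immunoprecipitation) feeds cells 4-thiouridine (4SU), crosslinks bound protein to it with UV light and sequences the RNA that stays with the protein. A cluster is a stretch of the genome, on one strand, that the peak caller PARalyzer reported from these reads. All clusters on chrM were taken and no measured value was used to choose them. They numbered 1902 of the 102250 clusters in the 12 libraries, with 1194 on the plus strand and 708 on the minus strand. Each cluster was placed by its strand and by the 37 mitochondrial genes of GENCODE release 44 on the hg38 build. By midpoint, 815 clusters lay in an mRNA, 204 in an rRNA and 97 in a tRNA on the gene's own strand. A further 677 lay opposite a gene (antisense) and 109 lay where neither strand has a gene.

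All libraries came from wildtype HepG2 cells labelled with 4SU for 14 h and crosslinked at 365 nm, and no input, mock or untreated library was analysed here. The libraries were 2 each for IGF2BP1, IGF2BP2, METTL1 and WDR4, 2 for IGF2BP3, and 2 more for IGF2BP3 whose titles add "bio2". The IGF2BP proteins are known mainly from the cytoplasm, where they bind mRNA. METTL1 and WDR4 form the enzyme that writes internal 7-methylguanosine (m7G) into tRNA and other RNA. HepG2 is 1 cell line, so nothing here measures differences between people. Of 8 liver genes set as markers, ALB, AFP, APOB, SERPINA1, FGB and TF had a cluster in 9 to 12 libraries, APOA1 in 1 and TTR in 0.

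Mitochondrial DNA is a small circle that is transcribed in full from both strands as long precursor RNAs. The heavy-strand precursor, which reads as the plus strand of chrM, carries both rRNAs, most of the tRNAs and all but one of the mRNAs. The light-strand precursor, which reads as the minus strand, carries MT-ND6 and a few tRNAs. Most of its length is antisense to genes and is normally degraded quickly. tRNAs lie between the other genes, and cutting at their ends releases the mRNAs and rRNAs. The mRNAs encode subunits of the respiratory chain and of ATP synthase, and they are translated inside the organelle.

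The IGF2BP3 bio2 libraries stood apart from the other 10 on chrM. They held 8 and 6 minus-strand clusters, against 53 to 98 in each other library. Most comparisons are therefore given with and without them. The deposited files hold cluster positions without read counts, so the depth behind each cluster is unknown and a position with no cluster sets no bound on binding. Reads had been allowed to map to as many as 10 places. Of chrM positions, 45.9% centre a 20-nt sequence that occurs once in the genome and 52.2% one that occurs 2 to 10 times. Nuclear chromosomes carry old copies of mitochondrial DNA, so a read can match both. The labels do not say that replicates were separate cultures, so p-values measure the spread between these libraries, which may be technical.

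The stretches covered by a cluster in all 12 libraries are shown first, since they are the part of chrM that every protein's libraries shared. They are read 5′ to 3′ from hg38, with T in capitals, because 4SU takes the place of U (T in DNA). On the plus strand 91 such stretches were found. The longest were 118 nt in MT-ND2 at chrM:4842-4959, 107 nt in MT-ND2 at chrM:5294-5400 and 106 nt at the 5′ end of MT-ND5 at chrM:12337-12442. On the minus strand only 2 were found, 33 nt in MT-TP at chrM:15957-15989 and 22 nt in MT-TE at chrM:14678-14699. Both are tRNA genes coded on that strand.
MT-ND2 plus, first stretch: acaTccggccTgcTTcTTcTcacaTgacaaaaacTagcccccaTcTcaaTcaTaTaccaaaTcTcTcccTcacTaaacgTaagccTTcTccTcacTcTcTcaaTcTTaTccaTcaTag
MT-ND2 plus, second stretch: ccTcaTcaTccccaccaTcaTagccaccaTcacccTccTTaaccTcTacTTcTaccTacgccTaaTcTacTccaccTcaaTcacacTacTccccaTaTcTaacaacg
MT-ND5 plus: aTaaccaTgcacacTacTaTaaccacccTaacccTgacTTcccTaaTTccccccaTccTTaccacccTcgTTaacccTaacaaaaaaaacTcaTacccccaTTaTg
MT-TP minus: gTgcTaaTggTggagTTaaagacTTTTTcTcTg
MT-TE minus: TcgTggTTgTagTccgTgcgag
The 3 plus-strand stretches held 6.78%, 2.80% and 3.77% G, and the plus strand as a whole 13.1%. All 4190 plus-strand positions covered in the 12 libraries together held 6.80% G, and the 1011 covered in none held 16.4%. The minus strand did not show this. It held 31.3% G as a whole, 32.7% at the 55 positions covered in all 12 libraries and 31.6% at the 1501 covered in none. The MT-TP and MT-TE stretches held 27.3% and 40.9% G. RNase T1, used to trim the RNA, cuts after G. The base before a chrM cluster was G in 75.5% to 90.9% of clusters by library and in 74.2% to 94.9% on chromosomes 1-22, X and Y.

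A second sequence shows what the bio2 libraries lacked. It was chosen after the values were seen, as the longest minus-strand stretch of at most 300 bases that was covered in the other 10 libraries and in neither bio2 library. It lies at chrM:13195-13444, is 250 nt long and is antisense to MT-ND5. It held 30.4% G and 33.2% T.
Antisense of MT-ND5, minus: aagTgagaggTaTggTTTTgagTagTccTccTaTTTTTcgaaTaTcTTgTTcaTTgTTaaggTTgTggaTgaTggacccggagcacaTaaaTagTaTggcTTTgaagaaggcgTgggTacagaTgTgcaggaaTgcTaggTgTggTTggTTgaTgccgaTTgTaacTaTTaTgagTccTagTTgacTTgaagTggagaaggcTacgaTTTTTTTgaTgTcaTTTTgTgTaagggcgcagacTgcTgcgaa

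Both strands of chrM were widely covered in 10 libraries, and the plus strand alone in the bio2 libraries. The covered part of the plus strand was 75.7% and 78.3% in the IGF2BP1 libraries, 61.0% and 69.0% for IGF2BP2, 62.1% and 66.4% for IGF2BP3 and 52.2% and 51.6% for IGF2BP3 bio2. It was 68.2% and 72.5% for METTL1 and 79.2% and 75.8% for WDR4. The bio2 libraries were lowest, and the IGF2BP1 and WDR4 libraries were the 4 highest. The covered part of the minus strand was 59.6% and 62.7% for IGF2BP1, 53.7% and 67.7% for IGF2BP2, 31.7% and 44.5% for IGF2BP3 and 1.58% and 1.10% for IGF2BP3 bio2. It was 72.8% and 75.7% for METTL1 and 79.3% and 78.0% for WDR4. All 4 METTL1 and WDR4 libraries lay above all 8 IGF2BP libraries on the minus strand, and the groups overlapped on the plus strand.

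**Figure D1:**
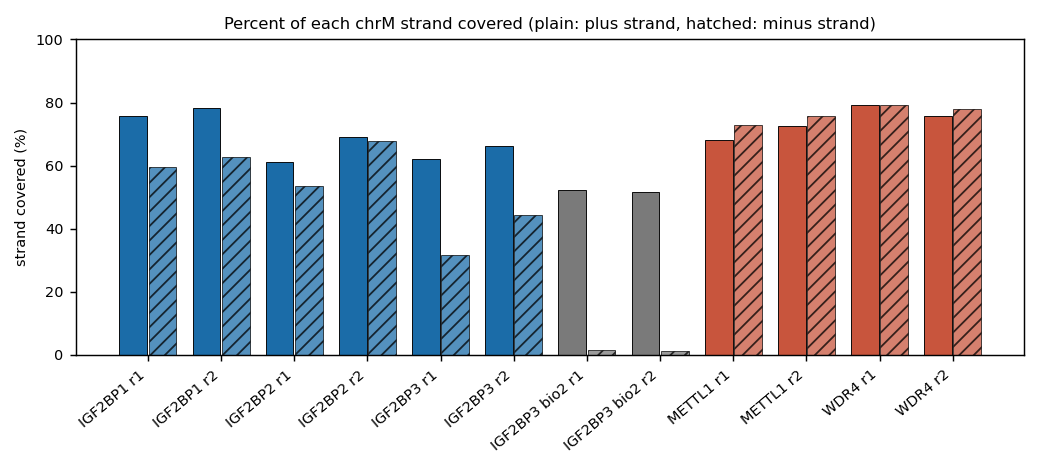
Percent of each chrM strand covered by at least 1 cluster (y axis) in each of the 12 libraries (x axis, r1 and r2 are replicates). Plain bars are the plus strand and hatched bars the minus strand, with IGF2BP libraries in blue, IGF2BP3 bio2 in grey and METTL1 and WDR4 in red. Minus-strand bars are at 1.58% and 1.10% in the bio2 libraries and at 72.8% to 79.3% in the METTL1 and WDR4 libraries.

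The minus strand was covered less in the IGF2BP libraries, at 40.3% ± 26.5 (SD, n = 8), than in those of METTL1 and WDR4, at 76.5% ± 2.83 (SD, n = 4). The difference was -36.1 percentage points (two-sided exact permutation test over libraries, p = 0.0242, smallest possible 0.00202). With bio2 left out the IGF2BP mean was 53.3% ± 13.2 (SD, n = 6), and it lay -23.2 points from the other group (exact p = 0.0143). The plus strand was at 64.5% ± 9.81 (SD, n = 8) against 73.9% ± 4.71 (SD, n = 4). The difference of -9.40 points did not pass the test (exact permutation p = 0.105), and without bio2 it was -5.19 points (exact p = 0.224). With clusters wider than 100 nt left out, the difference turned to 2.22 points on the minus strand (exact p = 0.568) and 5.98 points on the plus strand (exact p = 0.133). That step takes away covered length, and more of it where wide clusters are more frequent. Clusters over 100 nt made up 51.5% of the chrM clusters in the METTL1 and WDR4 libraries and 35.6% in the IGF2BP libraries. With the 5 proteins as the units the minus-strand difference over all clusters was -29.3 points (exact permutation p = 0.3 over 10 assignments). There 3 proteins against 2 cannot reach the threshold, and 0.3 was not the smallest p possible.

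The minus strand made up 33.8% to 49.5% of the covered length of chrM in the 6 other IGF2BP libraries, 2.94% and 2.08% in the bio2 libraries and 50.0% to 51.7% in the METTL1 and WDR4 libraries. The means were 33.0% ± 19.4 (SD, n = 8) and 50.9% ± 0.680 (SD, n = 4), which did not differ beyond the spread (difference -17.9 points, exact permutation p = 0.0929). The spread among IGF2BP libraries was smaller without bio2, and the difference of -7.74 points then passed the test (exact p = 0.0190). By number of clusters in place of covered length it was -6.68 points over the 12 libraries (exact p = 0.554). Without bio2, a setting chosen after the data were seen, the share by number turned to 2.83 points higher in the IGF2BP libraries, at 43.3% against 40.4% (exact p = 0.329). The gap between the plus and minus strands was 1.32 to 50.6 points in the IGF2BP libraries and -4.66 to -0.121 points in the METTL1 and WDR4 libraries. The plus strand was thus covered more in 8 of 8 and less in 4 of 4.

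**Figure D2:**
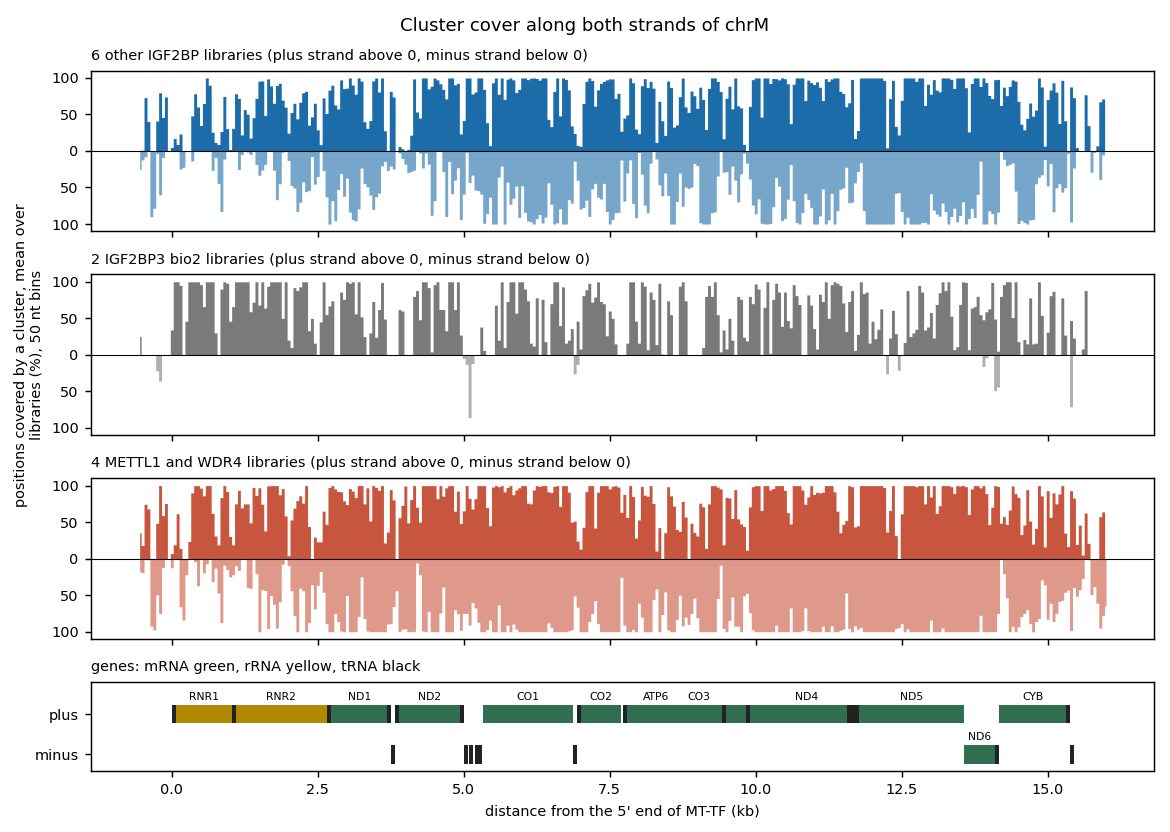
Mean percent of positions covered in 50-nt bins (y axis, plus strand above 0 and minus strand below 0) against distance from the 5′ end of MT-TF in kb (x axis), for the 6 other IGF2BP libraries, the 2 IGF2BP3 bio2 libraries and the 4 METTL1 and WDR4 libraries. The lowest panel draws the 37 genes to scale on their coding strands. In the bio2 panel the minus strand is nearly empty outside tRNA genes, while the other panels are filled on both strands, with the minus strand sparser opposite the rRNAs.

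On the minus strand the bio2 libraries covered little besides tRNA positions. Antisense positions made up 87.8% to 91.1% of the covered minus strand in the other 10 libraries and 9.92% and 11.5% in the bio2 libraries. tRNA positions made up 2.22% to 4.03% in the others and 71.4% and 72.5% in the bio2 libraries. Of the whole minus strand, covered or not, 86.2% is antisense and 3.33% lies in a tRNA. The shares in the other 10 libraries were thus near those of the strand itself. The bio2 libraries covered 33.9% and 24.0% of the minus-strand tRNA positions. That lay within the 21.2% to 66.1% of the 6 other IGF2BP libraries and below the 54.6% to 96.2% of the METTL1 and WDR4 libraries. Of antisense positions on the minus strand the bio2 libraries covered 0.182% and 0.147%, the 6 others 33.0% to 71.0% and the METTL1 and WDR4 libraries 76.2% to 80.8%. Minus-strand positions in an mRNA (MT-ND6) and in no gene were low in the bio2 libraries too, at 0% to 3.81% and at 2.39%, against 65.3% to 91.8% and 6.94% to 25.8% in the 6 others. Antisense positions on the plus strand were covered to 35.6% and 37.7% there and to 74.7% to 94.2% in the 6 others.

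Few positions belonged to 1 group of libraries alone. On the minus strand 438 positions were covered in all 4 METTL1 and WDR4 libraries and in no IGF2BP library. Of these 92.5% were antisense, against 86.2% of the whole minus strand. The longest of these stretches were 79 nt antisense to MT-ND2 at chrM:5099-5177 and 62 nt antisense to MT-ATP8 at chrM:8369-8430. On the plus strand there were 65 such positions, of which 62 formed 1 stretch in MT-ND2 at chrM:4538-4599. No position on either strand was covered in all 8 IGF2BP libraries, or in the 6 without bio2, and in no METTL1 or WDR4 library. That bar asks for more libraries than the 4 of the reverse case. In both replicates of at least 1 IGF2BP protein (bio2 aside) and in no METTL1 or WDR4 library, 349 plus-strand and 50 minus-strand positions were covered. In both replicates of METTL1 or of WDR4 and in no IGF2BP library it was 209 and 1025. Both bio2 libraries together covered 95 plus-strand positions that no other library covered, and the longest stretch was 30 nt in MT-RNR1 at chrM:828-857. They lacked 1709 plus-strand positions that all 10 others covered. The longest of these, 108 nt at chrM:5774-5881, is antisense to MT-TC and MT-TY, and the next, 85 nt at chrM:5581-5665, is antisense to MT-TA and MT-TN.

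The 13 mRNAs encode subunits of 4 complexes of oxidative phosphorylation. Averaged over these genes, 50.7% to 88.8% of the length was covered on the own strand, lowest in the bio2 libraries and highest in IGF2BP1 replicate 2. All 13 were covered in 11 of 12 libraries or more. Values below are the percent of a gene's length covered on its own strand.

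Complex I (NADH dehydrogenase) has the subunits MT-ND1 to MT-ND6 and MT-ND4L. MT-ND4L at chrM:10470-10766 had the highest mean cover of the mRNAs, 88.2% ± 9.36 (SD, n = 12), and MT-ND4 at chrM:10760-12137 followed with 84.8% ± 11.1 (SD, n = 12). The genes overlap by a few bases and are kept on 1 mRNA. MT-ND5 at chrM:12337-14148 had 46.6% and 52.8% in the bio2 libraries and 77.9% to 94.0% in the other 10. MT-ND2 at chrM:4470-5511 had a lowest, median and highest value of 60.8%, 72.2% and 75.0% in the 6 other IGF2BP libraries and 64.8% and 66.8% in the bio2 libraries. It had 88.9% and 79.7% in the METTL1 libraries and 84.7% and 94.8% in the WDR4 libraries. The groups did not overlap, and MT-ND2 was the only mitochondrial gene with that pattern on its own strand over the 12 libraries, against 0.354% of all own-strand features tested. MT-RNR1 joined it when bio2 was left out, against 0.497%. The mean difference for MT-ND2 was -18.2 points (exact permutation p = 0.00202, adjusted p = 0.0889). That was short of the threshold after adjustment, although this p is the smallest possible. MT-ND1 at chrM:3307-4262 ranged from 54.4% to 92.8%, and MT-ND3 at chrM:10059-10404 from 26.0% to 94.2%.

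MT-ND6, at chrM:14149-14673, is the only mRNA coded on the minus strand. Its cover was 91.0% and 91.8% for IGF2BP1, 83.4% and 80.8% for IGF2BP2, 65.3% and 75.8% for IGF2BP3, 3.81% and 0% for IGF2BP3 bio2, 91.8% and 99.8% for METTL1 and 100% and 99.6% for WDR4. It was nearly bare in the bio2 libraries, although the opposite strand of the same gene was covered there to 69.0% and 57.9%. Leaving these aside, it was among the best covered mRNAs. The difference between IGF2BP and METTL1-WDR4 libraries, -36.3 points, did not pass the test (exact permutation p = 0.0889, adjusted p = 0.303). Without bio2 the means were 81.4% and 97.8%, and the difference was -16.4 points (exact permutation p = 0.0143, adjusted p = 0.176).

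Complex III (the cytochrome bc1 complex) has 1 mitochondrial subunit, MT-CYB at chrM:14747-15887, with a cover of 41.4% to 85.8% over the libraries. Complex IV (cytochrome c oxidase) has 3. MT-CO1 at chrM:5904-7445 was at 53.9% and 47.7% in the bio2 libraries, 72.6% to 96.5% in the 6 other IGF2BP libraries, 88.5% and 92.7% for METTL1 and 98.5% and 83.8% for WDR4. MT-CO2 at chrM:7586-8269 ranged from 50.0% to 97.4% and MT-CO3 at chrM:9207-9990 from 43.2% to 95.2%. MT-CO3 was highest in the IGF2BP1 libraries, at 93.6% and 95.2%, and was 56.0% to 62.6% in the METTL1 and WDR4 libraries. MT-CO3 and MT-ATP8 were the 2 mRNAs with a higher mean in the IGF2BP libraries, by 8.18 and 2.84 points, neither past the test (exact permutation p = 0.459 and 0.782). That list depended on the bio2 pair. Without it the MT-CO3 difference was 16.0 points, at 75.6% against 59.5% (exact permutation p = 0.110, adjusted p = 0.271), and MT-ND4 (90.7% against 85.8%) and MT-CYB (68.3% against 66.8%) were higher in the IGF2BP libraries as well. ATP synthase has MT-ATP8 at chrM:8366-8572 and MT-ATP6 at chrM:8527-9207, which overlap on 1 mRNA. They ranged from 44.9% to 94.7% and from 43.8% to 86.5%.

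The rRNAs were well covered in the bio2 libraries. MT-RNR1, the small-subunit rRNA at chrM:648-1601, was at 50.0% and 39.3% for IGF2BP1, 41.2% and 38.1% for IGF2BP2, 25.2% and 24.9% for IGF2BP3, 74.9% and 79.5% for IGF2BP3 bio2, 51.5% and 64.3% for METTL1 and 62.4% and 71.7% for WDR4. The bio2 libraries were above the other 10. MT-RNR2, the large-subunit rRNA at chrM:1671-3229, was at 78.6% and 72.9% in the bio2 libraries, 40.4% and 39.4% in the other IGF2BP3 libraries and 55.5% to 84.4% in the remaining 8. rRNA made up 21.7% and 21.8% of the covered length of chrM in the bio2 libraries and 4.64% to 8.41% in the other 10. Over the 12 libraries neither rRNA passed the test between IGF2BP and METTL1-WDR4 libraries (exact permutation, adjusted p = 0.436 and 0.821). For MT-RNR1 that rested on the bio2 pair. The 6 other IGF2BP libraries, at 24.9% to 50.0%, all lay below the METTL1 and WDR4 libraries, at 51.5% to 71.7%. Their means were 36.4% and 62.4%, and the difference of -26.0 points had the smallest p that 10 libraries allow (exact permutation p = 0.00476) but not an adjusted p under the threshold (0.0914). For MT-RNR2 the difference without bio2 was -7.15 points (exact permutation p = 0.495).

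The 22 tRNAs were covered less evenly than the mRNAs. Averaged over the 22 genes, 20.2% of the length was covered in IGF2BP3 replicate 1 and 67.0% in WDR4 replicate 1, and 7 to 20 of the 22 had any covered base in a library. By mean over the 12 libraries the highest were MT-TE (chrM:14674-14742) with 88.2% ± 21.0, MT-TS2 (chrM:12207-12265) with 88.1% ± 9.94 and MT-TP (chrM:15956-16023) with 81.5% ± 15.7 (SD, n = 12). They carry glutamate, serine and proline, and all 3 were covered in 12 of 12 libraries, bio2 included. The lowest were MT-TM (chrM:4402-4469), the methionine tRNA, with 2.33%, MT-TT (chrM:15888-15953), for threonine, with 4.92%, and MT-TL2 (chrM:12266-12336), for leucine, with 8.92%. MT-TM was covered in 1 library, MT-TT in 2 and MT-TL2 in 3. Other tRNAs went from 0% to 100% between libraries. MT-TY was at 0% in all 4 IGF2BP3 libraries and at 86.4% to 100% in the other 8. MT-TF, the first gene of the heavy-strand precursor, was at 90.1% in each bio2 library and at 0% to 67.6% in the others.

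The tRNA share of the covered length of chrM was 1.94% to 2.91% in the 6 other IGF2BP libraries, 5.28% and 5.37% in the bio2 libraries, 2.48% and 3.62% for METTL1 and 3.83% and 3.58% for WDR4. METTL1-WDR4 modifies tRNA, so this comparison asks whether its libraries held more of it on chrM. The mean was 3.20% ± 1.35 (SD, n = 8) for IGF2BP and 3.38% ± 0.609 (SD, n = 4) for METTL1-WDR4, and they lay -0.180 points apart (exact permutation p = 0.818). Leaving out bio2 put the IGF2BP mean at 2.49% ± 0.409 (SD, n = 6), and the difference of -0.888 points passed the test (exact p = 0.0286). Over positions whose 20-nt sequence occurs once, the difference was 0.191 points in the 12 libraries (exact p = 0.764) and -0.277 points without bio2 (exact p = 0.176). Counting clusters by midpoint gave 0.552 points (exact p = 0.574) and -0.0381 points without bio2 (exact p = 0.962). The values without bio2 under these settings were added after the data were seen, and neither passed the test.

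On the strand opposite the genes, all 35 mitochondrial features tested had a lower mean cover in the 8 IGF2BP libraries, bio2 included. Of all opposite-strand features tested in the genome, 149 of 464 did, and 132 of 439 without bio2. Without bio2, 30 of the 35 mitochondrial features did. The exceptions were MT-TN (92.7% against 78.1%) and MT-TW (91.4% against 87.9%), which were higher in the IGF2BP libraries, and MT-TA, MT-TE and MT-TY, which were at 100% in all 10. The 5 highest by mean over the 12 libraries were opposite tRNAs, namely MT-TP with 89.1%, MT-TE with 87.2%, MT-TY (chrM:5826-5891) with 85.9%, MT-TA (chrM:5587-5655) with 83.3% and MT-TL1 (chrM:3230-3304) with 83.0%. The first 4 are coded on the minus strand, so this cover lay on the plus strand, as which the heavy-strand precursor reads. Which RNA the reads came from was not tested. Opposite MT-TA all 10 libraries without bio2 were at 100% and both bio2 libraries at 0%. The strand opposite MT-RNR1 and MT-RNR2 was the least covered of the larger genes, at 14.4% ± 11.5 and 28.6% ± 20.7 (SD, n = 12).

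Antisense cover of 6 mRNAs and of MT-TM was higher in all 4 METTL1 and WDR4 libraries than in all 8 IGF2BP libraries. These were MT-ND2, MT-ND4, MT-ND5, MT-CO1, MT-ATP6 and MT-ATP8, or 7 of 35 features against 4.74% of all opposite-strand features tested. Without bio2 it was again these 7 of 35, against 5.01%. Opposite MT-ND2 the lowest, median and highest of the 6 other IGF2BP libraries were 16.6%, 27.1% and 55.3%, and both bio2 libraries were at 0%. The METTL1 libraries were at 80.8% and 79.3% and the WDR4 libraries at 84.6% and 88.2%. Opposite MT-ATP8 the same IGF2BP values were 28.0%, 40.8% and 60.4%, with 0% in both bio2 libraries, against 100% and 100% for METTL1 and 97.1% and 97.6% for WDR4. Opposite MT-ND5 the 6 other IGF2BP libraries reached 72.3% to 96.1% and the METTL1 and WDR4 libraries 97.5% to 99.6%, so that group gap was small. The mean differences were -61.8 points for MT-ND2 and -65.6 points for MT-ATP8 (exact permutation p = 0.00202 and adjusted p = 0.0889 for both).

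**Figure D3:**
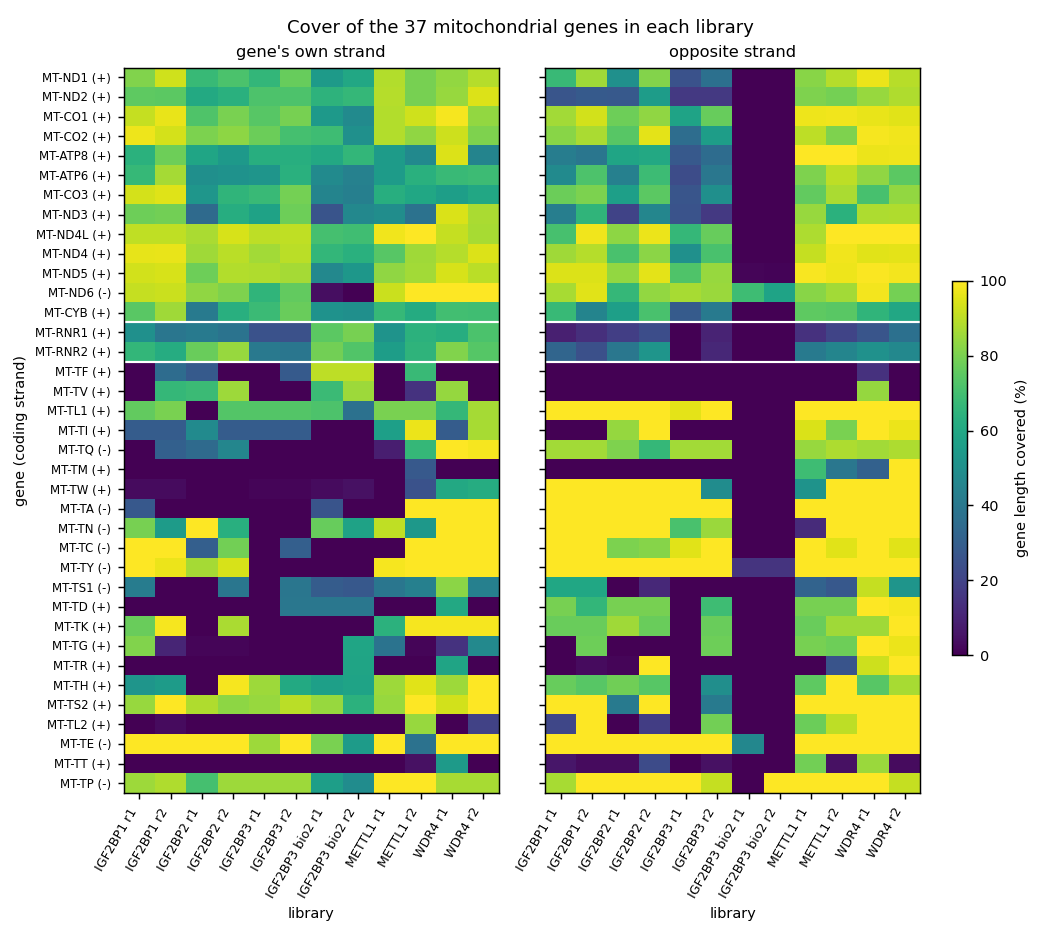
Percent of each gene's length covered (colour, 0 to 100) on the gene's own strand (left) and on the opposite strand (right) for the 37 mitochondrial genes (y axis, coding strand in brackets) in the 12 libraries (x axis). White lines part mRNAs, rRNAs and tRNAs. The bio2 columns are dark across the opposite-strand panel except at MT-ND6, MT-TE, MT-TP and MT-TY, with a trace at MT-ND5, and MT-ND6 is dark there on its own strand.

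All 4706 gene and strand features of the genome were tested between the groups. No feature passed an adjusted p of 0.05, so 0% of own-strand and 0% of opposite-strand features were called. The smallest p possible, 0.00202, gave an adjusted p of 0.0889 here, and without bio2 0.00476 gave 0.0914. Even a feature whose groups were fully apart was thus not called, and the 0 calls do not show that no feature differed. At an unadjusted exact p of 0.05 or less, 8 of 34 own-strand mitochondrial features had a lower mean in the IGF2BP libraries, against 2.83% of the 4242 own-strand features. On the opposite strand it was 14 of 35, against 11% of 464. Without bio2 it was 9 of 33 against 2.8% and 11 of 35 against 10.5%, and again no feature passed an adjusted p of 0.05. These shares count the lower direction alone, and 3390 of the 4242 own-strand features had a higher mean in the IGF2BP libraries. With both directions counted, over the 12 libraries, it was 8 of 34 against 773 of 4242 on the own strand. On the opposite strand it was 14 of 35 against 103 of 464. The 7 tRNAs among the first 8 included MT-TA, MT-TI, MT-TQ and MT-TW. The median difference was -14.9 points for own-strand and -37.4 points for opposite-strand mitochondrial features, and 0.289 and 0.188 points over all features tested on these strands. Without bio2 the mitochondrial medians were -9.68 and -19.9 points, and those over all features 0.374 and 0.270 points. Mitochondrial features share libraries, strands and wide clusters, so these counts are not independent.

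Stretches without a gene on either strand were covered in part. The longest run from the contig start to MT-TF (chrM:1-576) and from MT-TP to the contig end (chrM:16024-16569), and together they form the control region where replication and transcription start. Before MT-TF, 0% to 45.1% was covered on the plus strand and 5.03% to 40.1% on the minus strand. After MT-TP, minus-strand cover was 38.5% and 42.5% for METTL1 and 57.7% and 33.5% for WDR4, and 0% to 16.7% in the 8 IGF2BP libraries, 4 of which were at 0%. Plus-strand cover there was 8.79% to 38.5%, with overlapping groups. Between MT-TN and MT-TC (chrM:5730-5760, 31 nt), where light-strand replication begins, 8 libraries had plus-strand cover and 8 minus-strand cover, and between MT-CO2 and MT-TK (chrM:8270-8294, 25 nt) 7 and 2 did.

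Clusters seldom ran across the end of a gene. On the plus strand, 18 boundaries join an mRNA or rRNA to its neighbour within 2 nt. A boundary counted as crossed where 1 cluster reached at least 5 nt to both sides. Libraries crossed 5.56% to 27.8% of the boundaries, and the same measure inside mRNAs and rRNAs, at least 50 nt from their ends, gave 51.0% to 81.3%. The difference was -55.6 points ± 13.2 (SD, n = 12) and lay below 0 in 12 of 12 libraries (two-sided exact sign-flip permutation test, p = 0.000488, the smallest possible). In the 10 others alone it was -60.2 points (exact p = 0.00195). Of the 18 boundaries, 9 were crossed in no library. The most often crossed was that of MT-TL1 and MT-ND1, in 10 libraries, then MT-TV and MT-RNR2 in 6 and MT-CO3 and MT-TG in 4. The bio2 libraries crossed 3 and 4 boundaries, both among them MT-TF and MT-RNR1, which no other library crossed. A boundary beside a tRNA without a cluster cannot be crossed, so low tRNA cover and low crossing are not separate measurements.

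Clusters on chrM were wide. The median width on chrM was 53.5 nt in IGF2BP3 bio2 replicate 1 and 118 nt in WDR4 replicate 1, and the median on chromosomes 1-22, X and Y was 34 to 42 nt. The difference within a library was 49.2 nt ± 18.1 (SD, n = 12) and above 0 in 12 of 12 (exact sign-flip permutation p = 0.000488, the smallest possible). With the bio2 libraries left out it was 54.95 nt (exact sign-flip permutation p = 0.00195). Clusters over 100 nt made up 13.5% to 58.3% of chrM clusters and 0.527% to 1.82% of those on the other chromosomes. The widest was 1207 nt on the minus strand in METTL1 replicate 1, antisense to MT-CO1 at chrM:6179-7385. The widest on the plus strand was 994 nt in MT-CO1, at chrM:6029-7022 in IGF2BP1 replicate 2. No minus-strand cluster of a bio2 library was wider than 56 nt.

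**Figure D4:**
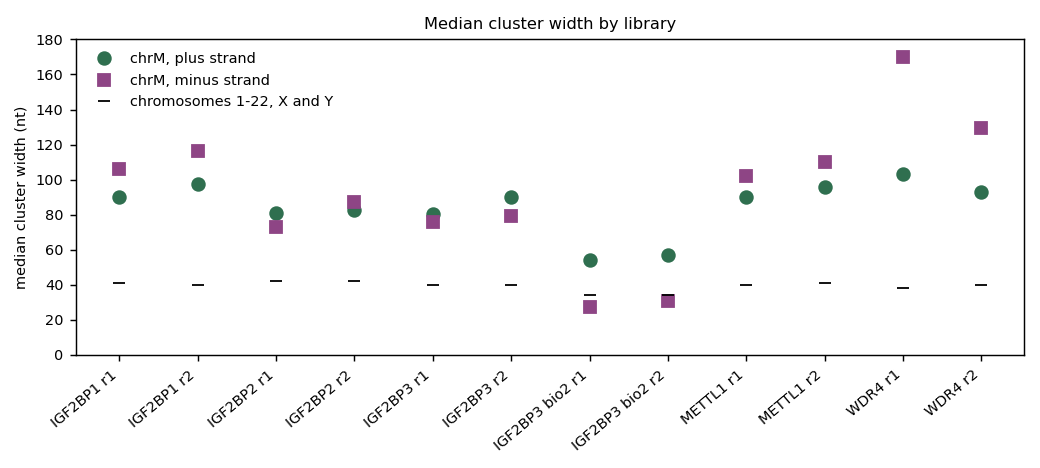
Median cluster width in nt (y axis) for the plus strand of chrM (circles), the minus strand of chrM (squares) and chromosomes 1-22, X and Y (dashes) in each library (x axis). The minus-strand median is 102 to 170 nt in the METTL1 and WDR4 libraries and 27.5 and 31 nt in the bio2 libraries.

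Median width on chrM was 80.6 nt ± 18.5 (SD, n = 8) in the IGF2BP group. In the METTL1-WDR4 group it was 105 nt ± 9.69 (SD, n = 4), and the groups differed by -24.1 nt (exact permutation p = 0.0404). The call was lost without the bio2 libraries (-15.5 nt, exact p = 0.0714), with clusters over 100 nt left out (-0.25 nt, exact p = 0.939) and with clusters whose centre occurs once in the genome (-10.3 nt, exact p = 0.416). It was also lost without IGF2BP2 replicate 1, IGF2BP2 replicate 2, IGF2BP3 replicate 1, WDR4 replicate 1 or WDR4 replicate 2, with differences of -24.8 to -19.6 nt. Minus-strand clusters were wider than plus-strand clusters in 4 of 4 METTL1 and WDR4 libraries and in 3 of 8 IGF2BP libraries. The plus minus minus difference in median width was 4.50 nt ± 17.2 (SD, n = 8) and -32.2 nt ± 25.4 (SD, n = 4), and these differed by 36.8 nt (exact permutation p = 0.0162, adjusted over 4 contrasts 0.0364). With bio2 set aside that was 29.5 nt (exact p = 0.0333, adjusted 0.0667). Over all 12 libraries the strands did not differ in median width (-7.75 nt ± 26.3, SD, n = 12, exact sign-flip permutation p = 0.349). In the 10 libraries without bio2 the difference was -14.55 nt (exact sign-flip permutation p = 0.0586). The minus-strand medians of the bio2 libraries rest on 8 and 6 clusters.

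Covered positions were shared widely between proteins. The positions covered in both of 2 libraries were 27.5% to 82.7% of those covered in either. This percent also rises with the part of each strand that the libraries cover, so a high value does not by itself show common binding sites. Replicates shared 82.7% for IGF2BP1, 75.1% for IGF2BP2, 74.9% for IGF2BP3, 80.1% for IGF2BP3 bio2, 79.4% for METTL1 and 82.7% for WDR4. METTL1 and WDR4 libraries shared 77.5% to 80.8% with each other, about as much as their own replicates. The bio2 libraries shared 34.1% to 38.3% with the other IGF2BP3 libraries and 27.5% to 33.2% with the libraries of the other proteins. On the plus strand alone bio2 and other IGF2BP3 libraries shared 53.6% on average, and on the minus strand 1.88%. The minus-strand value has a low ceiling, whichever positions are shared. The bio2 libraries covered 262 and 182 nt there, against 5259 and 7374 nt in the other IGF2BP3 libraries. Pairs of the same protein shared 62.0% (10 pairs) and other pairs 58.2% (56 pairs), a difference of 3.75 points that did not pass the one-sided exact permutation test over libraries (p = 0.264). Over the 10 libraries without bio2 it was 9.48 points (exact p = 0.00106, the smallest possible). On the plus strand of those 10, an alternative chosen after the data were seen, it was 6.46 points (exact p = 0.00106).

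**Figure D5:**
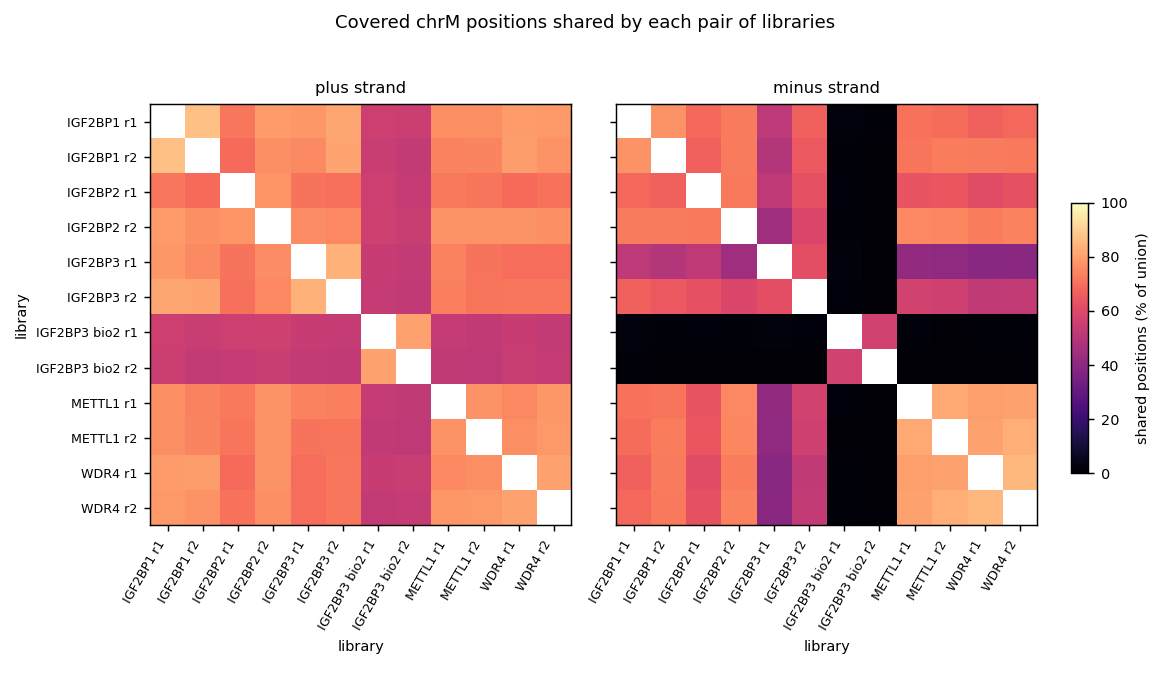
Positions covered in both libraries as a percent of those covered in either (colour), for each pair of libraries (both axes), on the plus strand (left) and on the minus strand (right). The diagonal is left blank. The bio2 libraries form dark bands on the minus strand, where they share 1.88% on average with the other IGF2BP3 libraries. They cover 1.58% and 1.10% of that strand, which keeps the shared percent low.

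When overlapping clusters of all libraries were merged by strand, chrM held 86 sites, and 31 of them (36.0%) were found in all 12 libraries. The figure was 0.591% of the 45174 merged sites of the whole series. By strand it was 27 of 48 sites on the plus strand and 4 of 38 on the minus strand. Merged chrM sites had a median length of 146 nt and reached 2407 nt, against a median of 39 nt over all sites, so that a longer site had more room to meet a cluster of each library. By position, 25.3% of the plus strand was covered in all 12 libraries and 0.332% of the minus strand. In the 10 libraries without bio2, 40.5% and 25.3% were covered in each.

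chrM held 0.930% (95% Wilson interval 0.791 to 1.09) of the clusters of IGF2BP1 replicate 2 and 4.15% (3.61 to 4.76) of those of IGF2BP2 replicate 1, the lowest and highest of the 12. These intervals cover counting error only. The other shares were 1.13% for IGF2BP1 replicate 1, 2.65% for IGF2BP2 replicate 2, 2.30% and 2.34% for IGF2BP3, 2.08% and 2.21% for IGF2BP3 bio2, 2.42% and 1.86% for METTL1 and 1.55% and 1.69% for WDR4. The number of chrM clusters moved little, from 133 to 198, while the total moved from 4581 to 15701 clusters. The means were 2.22% ± 0.985 (SD, n = 8) for IGF2BP and 1.88% ± 0.381 (SD, n = 4) for METTL1-WDR4 libraries (difference 0.344 points, exact permutation p = 0.545). As a share of covered length the difference was -1.71 points (exact p = 0.121). With bio2 left out the difference in the share of clusters was 0.371 points (exact permutation p = 0.581).

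Nuclear copies of mitochondrial genes also held clusters. Of 404 annotated mitochondrial pseudogenes, 61 had a cluster in some library and 11 in all 12. The most clusters lay in MTCO1P12 (chr1:631074-632616), with 147 on its own strand and 97 on the opposite strand. Reads that match chrM and these copies equally cannot be assigned to either. Positions whose 20-nt sequence occurs once made up 45.9% of chrM. Their mean cover was 69.6% ± 9.03 on the plus strand and 53.3% ± 27.9 on the minus strand (SD, n = 12), and for positions with 2 to 10 copies 66.7% ± 10.1 and 52.7% ± 28.0. In the bio2 libraries 83 of 89 and 70 of 75 clusters in nuclear copies lay on the own strand of the pseudogene. It was 82 of 128 and 95 of 153 in the IGF2BP1 libraries, 58 of 119 and 63 of 157 for IGF2BP2 and 85 of 109 and 89 of 121 for IGF2BP3. In the METTL1 and WDR4 libraries it was 58 of 160, 78 of 200, 83 of 209 and 88 of 214. The bio2 libraries thus had the highest share, and IGF2BP2 replicate 2 lay within the range of METTL1 and WDR4.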

How the data were processed

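PAR-CLIP clusters of 12 HepG2 libraries were analysed. Per the methods, the authors removed low-quality reads, clipped adapters, collapsed duplicates, kept reads over a minimum length, mapped them with Bowtie (as many as 3 mismatches, 10 places) and called peaks with PARalyzer. The processing notes name the hg38 build. Versions and PARalyzer settings are not given in the sources used here. The deposited files give chromosome, start, end, an identifier and strand, with no count, signal or p-value. The deposited columns used were therefore positions, and depth is unknown. Starts were read as counted from 1, and 100% of clusters then fitted the contigs.

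Positions on each strand were marked as covered where at least 1 cluster of a library lay, in the order mRNA, rRNA, tRNA, antisense, no gene (GENCODE release 44). Replicates of a group were libraries with the same title, and none was pooled. IGF2BP (n = 8) and METTL1-WDR4 (n = 4) libraries were compared by two-sided exact permutation over all 495 ways of assigning the libraries, paired measures by all 4096 sign patterns, and sharing by all 51975 ways of grouping the libraries into sets of the proteins' sizes. Gene cover (features covered in at least 3 libraries) was tested over the genome with Benjamini-Hochberg adjustment. Named genes were all mRNAs and rRNAs, the 3 highest and 3 lowest tRNAs by mean cover, the 5 highest opposite-strand features, stretches without a gene of at least 20 nt and the 3 longest stretches per strand covered in all libraries. Other names were chosen after their values were seen. The members and lists were chosen with earlier results of these data known. Alternatives left out single libraries or the bio2 pair, used the proteins as units, blocked by replicate number, counted starts from 0, kept single-copy 20-nt sequence (hg38, both strands) or left out clusters over 100 nt. Copies were counted in the reference genome as exact matches. The tests were tested on simulated data. Python 3.11.15, numpy 2.4.6, pandas 2.3.3, numba 0.67.0 and bedtools 2.31.1 were used.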

Additional observations from a re-analysis of the deposited data

Results flagged for a closer look

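Of 4 contrasts within a library, 3 differed between the IGF2BP and the METTL1-WDR4 libraries by an exact permutation test. The excess of plus-strand over minus-strand cover was 24.2 points ± 18.4 (SD, n = 8) and -2.53 points ± 1.92 (SD, n = 4), a difference of 26.7 points (exact p = 0.0182, adjusted 0.0364), and 18.0 points without the bio2 libraries (adjusted exact p = 0.0381). The plus minus minus difference in median width differed by 36.8 nt, as given above. The excess of the chrM median width over that of chromosomes 1-22, X and Y was 41.4 nt ± 16.0 (SD, n = 8) and 64.9 nt ± 10.9 (SD, n = 4), a difference of -23.4 nt (exact p = 0.0303, adjusted 0.0404). In the 10 libraries without bio2 it was -16.5 nt (exact p = 0.0619, adjusted 0.0825). No single library lay apart from the rest of its group by Dixon's criterion on the measures compared. The bio2 libraries lay apart from the other IGF2BP libraries as a pair, which that criterion does not test.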

How the results depend on the processing

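Over 12 fits that each left out 1 library, the minus-strand difference stayed between -40.1 and -30.5 points with exact p of 0.0182 to 0.0424. The plus-strand difference went from -11.4 to -7.55 points and passed the test without IGF2BP1 replicate 2 alone (exact p = 0.0455). The width difference went from -27.8 to -19.6 nt and was lost in 5 of 12. Without the bio2 libraries the minus-strand share (-7.74 points), the tRNA share (-0.888 points) and same-protein sharing (9.48 points) passed the test, and width (-15.5 nt) did not. With proteins as units, no test can reach the threshold: minus-strand cover was -29.3 points, width -20.3 nt, chrM minus other width 52.6 nt and boundary crossing -57.5 points. With single-copy clusters the chrM share was -0.161 points, width -10.3 nt and the plus minus minus width 3.88 nt, and with single-copy positions the tRNA share was 0.191 points. With clusters over 100 nt left out, plus-strand cover was 5.98 points, minus-strand cover 2.22 points, width -0.25 nt, plus minus minus width 2.12 nt and sharing 9.05 points, which passed the test (exact p = 0.00954), unlike the 3.75 points of all clusters. As covered length the chrM share was -1.71 points, and by midpoint the tRNA share was 0.552 points. Chosen after the data were seen, width on the plus strand alone was -16.6 nt (-8.71 nt without bio2), and sharing on the plus strand without bio2 was 6.46 points. Also added then, the minus-strand share by number of clusters without bio2 was 2.83 points. Except where the construction shows it, the cause was not tested. No shared deviation of same-numbered libraries was seen (15 correlations of -0.0721 to 0.0374). The labels do not say whether same-numbered libraries were handled together, and these correlations cannot settle it. With the replicate block the minus-strand difference was -36.1 points (exact p = 0.0356) and no call changed. The gene counts were 0 in all alternatives run, where the number of assignments also limits the smallest p possible. At an unadjusted p of 0.05 or less, 22 of 69 mitochondrial features passed over the 12 libraries and 20 of 68 without bio2. Of all features, 773 of 4242 own-strand and 103 of 464 opposite-strand ones passed over the 12 libraries. Without bio2 these were 857 of 3821 and 109 of 439. The mitochondrial count was 4 of 47 with single-copy clusters, 5 of 55 with clusters over 100 nt left out and 0 of 67 with proteins as units. The share over all features was not counted in these 3 settings, so those counts cannot be compared with it. Without read counts, depth cannot be weighed.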
